A study of Mus musculus with 24 samples.

Results

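The metallothioneins Mt1, Mt2 and Mt3, the zinc exporter Slc30a1 and the metal-sensing transcription factor Mtf1 were followed in mouse embryonic cortical neurons that carried or lacked ATF4 and were left untreated or exposed to homocysteate (HCA). These 5 of the 15946 genes named on the array were taken by symbol, with every probe annotated to them, which gave 6 probes: 1 each for Mt1, Mt2, Mt3 and Slc30a1 and 2 for Mtf1. The set was chosen by its Mt1 levels, which were lower with HCA in the knockout, so every value that contrasts knockout arrays with and without HCA is a description without a test. Of the 24 arrays, 8 held RNA of untreated wild-type neurons, 8 of untreated Atf4 knockout neurons, 4 of wild-type neurons with HCA and 4 of Atf4 knockout neurons with HCA. HCA is a glutamate homolog, used to expose the cells to oxidative stress. All groups were embryonic cortical neurons. The knockout allele, the embryos' age and strain, the HCA dose and the length of exposure were not given in the sources used here. Nothing in the labels says whether replicates were separate cultures or embryos, so every p-value measures only the spread between these samples, which may be technical.

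Metallothioneins are small cysteine-rich proteins that bind zinc and copper and scavenge oxidants. Mt1 and Mt2 are made in most tissues and are induced by metals, glucocorticoids and oxidative stress, whereas Mt3 is enriched in brain. MTF1 is the zinc finger factor that senses free zinc and binds metal response elements (MREs) in the promoters of Mt1, Mt2 and Slc30a1. Slc30a1 encodes ZnT1, the plasma membrane transporter that moves zinc out of the cell. ATF4 mediates the integrated stress response as the transcription factor that raises genes of amino acid supply and redox defence. HCA competes with cystine for uptake and so lowers glutathione, the other main thiol pool of the cell.

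The promoters of the MTF1-controlled members are shown because they carry the sequence through which metal reaches these genes, and that of Mt3 because its transcript was the member most often lower. Each window, from RefSeq on GRCm38.p6, runs from 250 bases before to 50 bases after the annotated start, 5′ to 3′ on the gene's plus strand, with matches to the MRE core in capitals. The core was searched as TGCACNC and TGCGCNC on both strands, and a match on the other strand reads in reverse complement.
Mt1, chr8:94178839-94179138: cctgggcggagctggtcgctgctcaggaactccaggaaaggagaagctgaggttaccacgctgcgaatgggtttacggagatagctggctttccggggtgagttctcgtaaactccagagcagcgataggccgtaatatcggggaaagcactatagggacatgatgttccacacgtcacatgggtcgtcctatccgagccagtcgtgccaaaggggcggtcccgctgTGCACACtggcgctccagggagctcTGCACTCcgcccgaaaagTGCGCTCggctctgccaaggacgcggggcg
Mt2, chr8:94172368-94172667: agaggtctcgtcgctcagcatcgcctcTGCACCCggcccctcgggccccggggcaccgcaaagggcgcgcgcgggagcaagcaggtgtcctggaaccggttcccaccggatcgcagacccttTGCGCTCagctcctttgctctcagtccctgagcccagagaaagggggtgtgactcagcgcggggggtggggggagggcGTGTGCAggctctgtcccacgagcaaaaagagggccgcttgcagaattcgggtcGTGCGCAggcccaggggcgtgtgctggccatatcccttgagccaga
Mt3, chr8:94152357-94152656: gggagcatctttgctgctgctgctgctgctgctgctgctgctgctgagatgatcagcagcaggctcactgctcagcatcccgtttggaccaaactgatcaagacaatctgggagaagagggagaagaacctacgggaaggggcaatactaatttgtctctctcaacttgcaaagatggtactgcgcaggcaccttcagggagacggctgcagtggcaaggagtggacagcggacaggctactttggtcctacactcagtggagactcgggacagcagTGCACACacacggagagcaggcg
Slc30a1, chr1:191906531-191906830: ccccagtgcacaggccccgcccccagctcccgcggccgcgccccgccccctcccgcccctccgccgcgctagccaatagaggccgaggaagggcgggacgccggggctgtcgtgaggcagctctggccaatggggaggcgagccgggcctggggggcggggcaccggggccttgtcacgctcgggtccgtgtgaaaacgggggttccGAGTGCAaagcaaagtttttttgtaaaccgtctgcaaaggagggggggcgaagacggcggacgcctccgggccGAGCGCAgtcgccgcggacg

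The Mt2 window held 4 matches to the core, the Mt1 window 3, the Slc30a1 window 2, the Mt3 window 1 and the Mtf1 window, at chr4:124802299-124802598, none (0). The matches did not overlap one another. Among 32851 mouse promoter windows of the same length, 25.7% held at least 1 match, 7.11% at least 2, 1.97% at least 3 and 0.517% at least 4. Those of Mt1 began at positions −23, 3 and 21 from the annotated start, and those of Mt2 lay on both sides of it, the last ending 11 bases after. Sequence outside the windows was not searched, and starts other than the annotated one were not considered. The single match of Mt3 lay 28 to 34 bases after the start. The composite element bound by ATF4, searched as TGATGNAA on both strands, had 0 matches in the 5 windows and occurred in 3.97% of all windows. The antioxidant response element TGACNNNGC, which NRF2 binds, occurred once (1 match) in the windows of Mt2 and of Slc30a1, and in 12.4% of all windows. A match is a stretch of letters and not a bound site. Each count and position holds for its window alone, and a gene without a match there may have matches outside it.

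**Figure D1:**
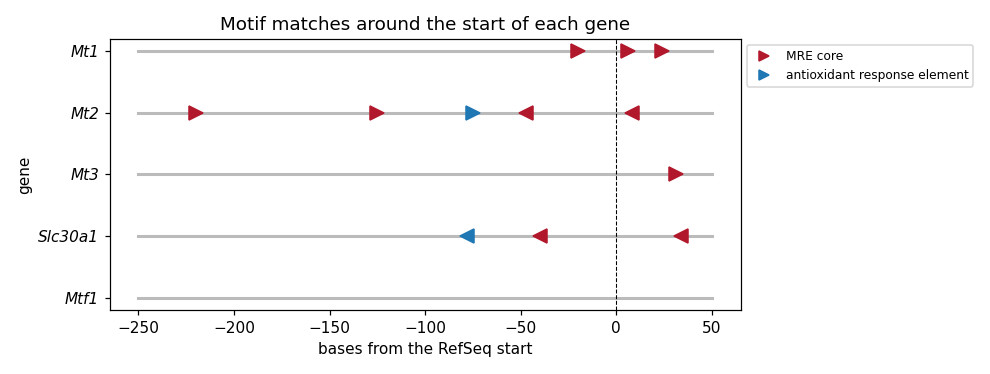
Positions of the motif matches along the promoter windows of the 5 members, in bases from the annotated start (x axis), with 1 row per gene and 1 mark per match of the MRE core or the antioxidant response element. The MRE core is marked 4 times in Mt2, 3 times in Mt1, 2 times in Slc30a1, once in Mt3 and not in Mtf1.

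The arrays were Illumina Mouse Ref-8 BeadChips, 3 chips of 8 arrays. On chip 1 were 4 untreated arrays per genotype and none with HCA, while chips 2 and 3 each carried 2 arrays of every group, so HCA was compared within chips 2 and 3. On chip 1 the genotypes filled separate ends of the chip, so position and genotype cannot be told apart there. The mean raw signal per array was 745 to 983 on chip 1, 342 to 537 on chip 2 and 296 to 669 on chip 3, and 36.6% to 47.9% of probes were detected. Levels are log2 intensities, corrected for background and normalized between arrays, and each member probe rested on 16 to 61 beads per array. Levels of different probes are not comparable with each other, and the number of arrays limits their precision. The Atf4 probe was detected on each of the 12 wild-type arrays and on 0 of the 12 knockout arrays. Of the neuronal markers, Tubb3, Map2, Syt1, Stmn2 and Gap43 were detected on all 24 arrays, but the probes for Snap25 and Nefl on 0.

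All 5 genes had a probe detected on at least 4 arrays and were among the 8755 genes tested. Calls were made in limma at an adjusted p (Benjamini-Hochberg) under 0.05. Without HCA, 1 of the 5 members, Mt3, was called lower in the knockout, against 6.53% of all genes. With HCA, Mt3 and Slc30a1, 2 of the 4 members given a test, were called lower in the knockout, against 11.1% of all genes. In wild-type neurons HCA lowered 1 of the 5, again Mt3, against 0.891% of all genes. No member was called higher in these 3 comparisons, whose backgrounds in that direction were 5.88%, 10.8% and 0.857%. On chips 2 and 3 no member lay wholly higher in any of these comparisons, where 9.91%, 11.4% and 3.07% of all genes did. In knockout neurons, where no test was given, 0.0343% of all genes were called lower with HCA. The calls of all genes depended on the scaling: median centring in place of quantile normalization gave 37 higher and 113 lower genes in untreated knockout neurons against 515 and 572. With HCA it gave 32 higher and 361 lower in the knockout against 946 and 975, and for HCA in wild type 16 higher and 1 lower against 75 and 78.

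**Figure D2:**
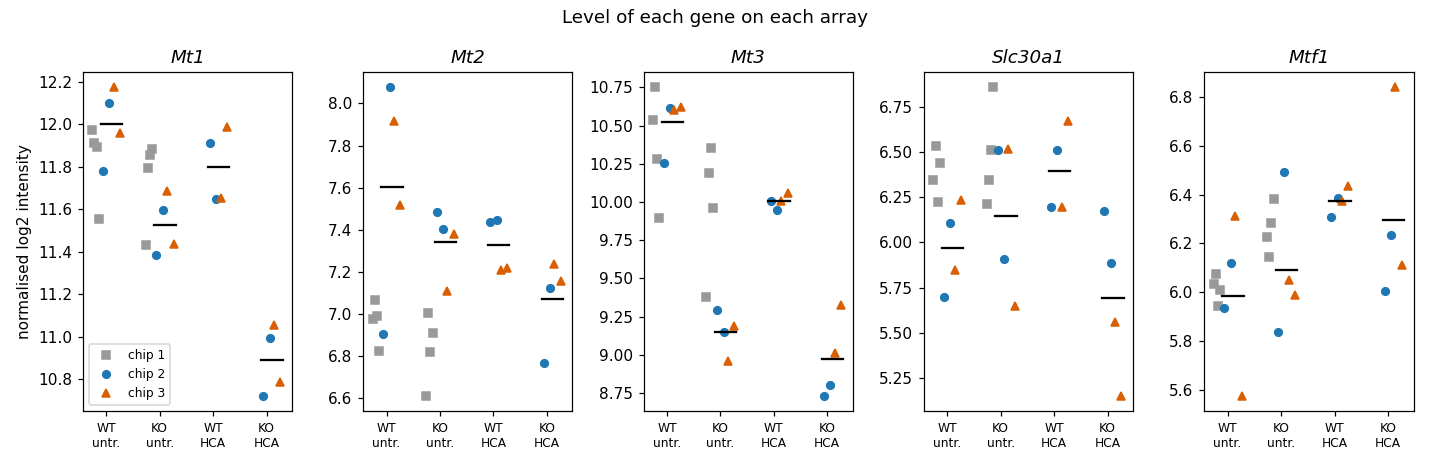
Level of each member (log2 intensity, y axis) on every array, by group (x axis), with the chip marked by symbol and a line at the mean of the arrays of chips 2 and 3. The knockout HCA arrays lie below all others for Mt1, and both knockout groups of chips 2 and 3 lie below both wild-type groups for Mt3.

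Mt1, the widely induced metallothionein, was lowest in HCA-treated knockout neurons. On chips 2 and 3 its level in untreated wild-type neurons was 11.78, 12.10, 12.17 and 11.96 in replicates 5 to 8, and in untreated knockout neurons 11.39, 11.60, 11.69 and 11.44. With HCA it was 11.91, 11.65, 11.66 and 11.99 in wild type and 10.72, 10.99, 11.06 and 10.79 in the knockout. The 4 knockout HCA arrays lay below all other arrays of the study, and the untreated genotypes did not overlap on chips 2 and 3. The groups ranked untreated wild type (12.00 ± 0.17, SD, n = 4), HCA-treated wild type (11.80 ± 0.17, SD, n = 4), untreated knockout (11.53 ± 0.14, SD, n = 4) and HCA-treated knockout (10.89 ± 0.16, SD, n = 4). The first and second in that order overlapped, as did the second and the third, through 1 knockout array. In the contrast that chose the set, Mt1 was 1.55-fold lower with HCA (−0.64 ± 0.11 on the log2 scale, SE), the 21st lowest difference of 8755 genes. The share of all genes with no overlap between these groups and lower values with HCA was 1.85%.

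In wild-type neurons, whose arrays are not in the contrast that chose the set, HCA left a Mt1 difference of −0.20 ± 0.11 (log2, SE; limma adjusted p = 0.454), with a 95% interval of −0.45 to 0.04. The difference between the responses of the genotypes was −0.43 ± 0.16 (log2, SE) and carries no test. Under HCA, Mt1 was 1.88-fold lower in the knockout than in wild type (−0.91 ± 0.11, log2, SE), again without a test, and all 4 knockout arrays lay below all 4 wild-type arrays. Without HCA the same genotype difference was −0.28 ± 0.09 (log2, SE; limma adjusted p = 0.053) over the 3 chips, so Mt1 did not pass the test. It was −0.47 on chips 2 and 3 (limma adjusted p = 0.00889 with those chips alone) and −0.09 on chip 1, where levels were 11.55 to 11.97 in wild type and 11.43 to 11.88 in the knockout and overlapped. The test of the difference between the chips gave an adjusted p of 0.262 in limma. The untreated knockout arrays enter both this comparison and the one that chose the set.

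Mt3, the metallothionein enriched in brain, was lower in the knockout with and without HCA and was lowered by HCA in wild type. On chips 2 and 3 its level in untreated neurons was 10.26, 10.61, 10.60 and 10.62 in wild type and 9.30, 9.15, 8.96 and 9.19 in the knockout. With HCA it was 10.01, 9.95, 10.00 and 10.06 in wild type and 8.73, 8.81, 9.01 and 9.33 in the knockout. On these chips no knockout array reached a wild-type array, and no HCA-treated wild-type array reached an untreated one. The groups ranked untreated wild type (10.52 ± 0.18, SD, n = 4), HCA-treated wild type (10.01 ± 0.05, SD, n = 4), untreated knockout (9.15 ± 0.14, SD, n = 4) and HCA-treated knockout (8.97 ± 0.27, SD, n = 4), of which only the last 2 overlapped. With HCA the knockout was 2.05-fold below wild type (−1.04 ± 0.12, log2, SE; limma adjusted p = 2.73e-05). The share of all genes with this lack of overlap was 11.2%, and among the 4 members given a test it held for Mt3 and Slc30a1.

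Without HCA, Mt3 was 1.85-fold lower in the knockout over the 3 chips (−0.88 ± 0.16, log2, SE; limma adjusted p = 0.00212). Mt1 and Mt3 were the 2 of 5 members whose untreated genotypes did not overlap on chips 2 and 3, against 10.9% of all genes. On chip 1 the groups overlapped: Mt3 was 10.53, 10.75, 10.28 and 9.89 in wild type and 9.38, 10.19, 10.35 and 9.96 in the knockout. The genotype difference was −0.40 on chip 1, with an adjusted p of 0.711 in limma on that chip alone, and −1.37 on chips 2 and 3. The test of the difference between the chips gave 0.98 ± 0.29 (log2, SE; limma adjusted p = 0.0667), and 4.8% of all genes passed that test.

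HCA lowered Mt3 1.43-fold in wild-type neurons (−0.52 ± 0.12, log2, SE; limma adjusted p = 0.0408), and 4.36% of all genes had HCA arrays entirely below the untreated ones. Against the untreated mean of its own chip, each of the 4 HCA arrays was lower, at −0.43, −0.49, −0.61 and −0.55. This call was close to the threshold: it was lost on leaving out any of 11 of the 16 arrays, with adjusted p of 0.022 to 0.127, and under median centring (−0.45, limma adjusted p = 0.999). In the knockout the HCA difference of Mt3 was −0.18 ± 0.12 (log2, SE), with −0.45 on chip 2 and 0.10 on chip 3. The difference between the responses, 0.34 ± 0.17 (log2, SE), carries no test, and its sign was not stable. It was 0.0021 on chip 2, 0.67 on chip 3 and −0.15 with all 24 arrays.

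**Figure D3:**
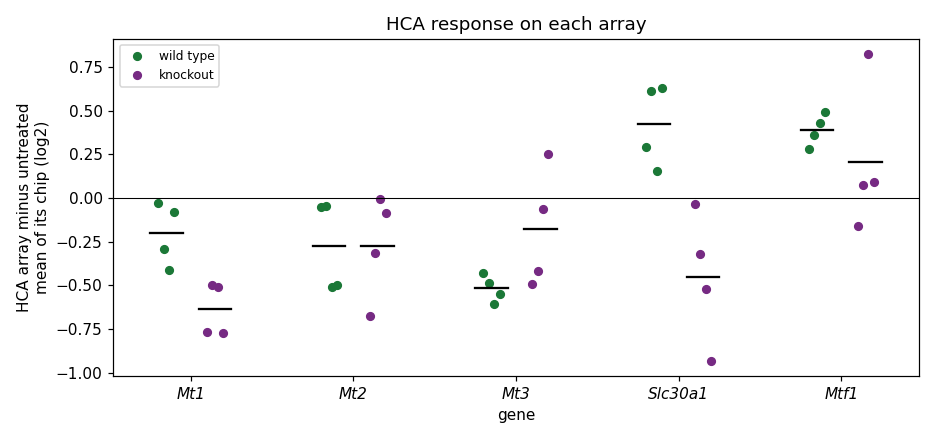
HCA response of each member on each HCA array (log2 difference from the untreated mean of the same genotype and chip, y axis), by gene (x axis) and genotype (colour), with a short line at the mean of the 4 arrays. For Mt1 the 4 knockout arrays lie at −0.77 to −0.50 and the 4 wild-type arrays at −0.41 to −0.03, and for Slc30a1 the wild-type arrays lie above 0 and the knockout arrays below it.

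Mt2, which lies beside Mt1 and is usually induced with it, passed no test. On chips 2 and 3 its level was 6.91, 8.08, 7.92 and 7.52 in untreated wild type and 7.48, 7.40, 7.11 and 7.38 in untreated knockout. With HCA it was 7.44, 7.45, 7.21 and 7.22 in wild type and 6.77, 7.13, 7.24 and 7.16 in the knockout. All 4 groups overlapped, those with HCA through 1 knockout array. The widest spread was in untreated wild type (7.60 ± 0.52, SD, n = 4). The knockout differed from wild type by −0.19 ± 0.12 without HCA (log2, SE; limma adjusted p = 0.323) and by −0.26 ± 0.20 with it (limma adjusted p = 0.416). The HCA difference of Mt2 was −0.28 ± 0.20 in wild type (log2, SE; limma adjusted p = 0.588) and −0.27 ± 0.20 in the knockout, where no test was given. The wild-type value was −0.53 without untreated wild-type replicate 5, −0.10 without replicate 6 and −0.16 without replicate 7 (limma adjusted p 0.118 to 0.895). The 95% interval of the wild-type HCA difference was −0.71 to 0.16.

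Slc30a1, the zinc exporter, was lower in the knockout than in wild type under HCA. Its level with HCA was 6.19, 6.51, 6.20 and 6.67 in wild type and 6.17, 5.89, 5.56 and 5.15 in the knockout. All 4 wild-type arrays were above the knockout arrays, the nearest pair 6.19 and 6.17, and the probe was detected on 4 of 4 and 1 of 4 of them. The difference was −0.70 ± 0.23 (log2, SE; limma adjusted p = 0.0432), with most knockout arrays not above background. Its size followed the treatment of low signals, at −0.39 with neqc, −0.46 with an offset of 50 and −0.31 with the authors' deposited log2 values, and these kept the call (limma adjusted p 0.0333 to 0.0377). It passed no test within chip 2 (−0.32, limma adjusted p = 0.533) or chip 3 (−1.08, limma adjusted p = 0.133). The call was lost on leaving out any of 8 of the 16 arrays (adjusted p 0.0261 to 0.132) and under median centring (−0.56, limma adjusted p = 0.196).

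Without HCA, Slc30a1 was 5.70 to 6.53 in wild type, with a median of 6.23, and 5.65 to 6.86 in the knockout, with a median of 6.43 (n = 8 each). The genotypes overlapped throughout, with a difference of 0.14 ± 0.15 (log2, SE; limma adjusted p = 0.588), and the probe was detected on 5 and 6 of the 8 arrays. The HCA difference was 0.42 ± 0.23 in wild type (log2, SE; limma adjusted p = 0.441) and −0.45 ± 0.23 in the knockout, without a test. With neqc the 2 values were 0.24 and −0.25 and with the deposited log2 values 0.19 and −0.20, and on chips 2 and 3 the probe was detected on 1 of 4 untreated wild-type and 2 of 4 untreated knockout arrays. Over the alternatives the wild-type value ranged from 0.03 to 0.45 and the knockout value from −0.81 to −0.18. Against the untreated mean of the same chip, the wild-type HCA arrays were at 0.29, 0.61, 0.15 and 0.63 and the knockout HCA arrays at −0.04, −0.32, −0.52 and −0.93. Every wild-type value was thus positive and every knockout value negative, the smallest at −0.04. The 2 HCA arrays of a genotype on a chip share 1 untreated mean, so the 4 signs are not independent. HCA and untreated levels overlapped in each genotype. The share of all genes with such a split of signs was not computed. The difference between the responses was −0.87 ± 0.33 (log2, SE) and was not tested.

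Mtf1, the sensor itself, passed no test. Without HCA its level was 5.58 to 6.31 in wild type, with a median of 6.02, and 5.84 to 6.49 in the knockout, with a median of 6.19 (n = 8 each). With HCA it was 6.31, 6.39, 6.37 and 6.44 in wild type and 6.00, 6.24, 6.84 and 6.11 in the knockout. The groups overlapped within each treatment. The knockout differed from wild type by 0.18 ± 0.11 without HCA (log2, SE; limma adjusted p = 0.334) and by −0.08 ± 0.19 with it (limma adjusted p = 0.823). The HCA difference of Mtf1 was 0.39 ± 0.19 in wild type (log2, SE; limma adjusted p = 0.379) and 0.21 ± 0.19 in the knockout. The probe was detected on 19 of the 24 arrays, and the dimmer probe of Mtf1 on 6, all of them untreated and on chip 1.

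**Figure D4:**
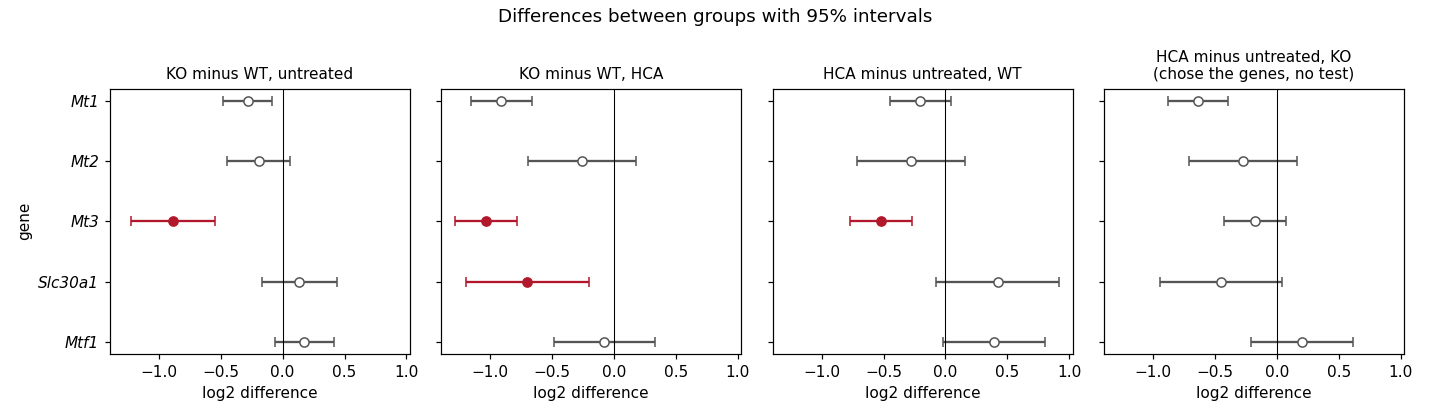
Difference of each member in the 4 comparisons (log2, x axis) with 95% intervals, filled where limma's adjusted p was under 0.05 and open otherwise or where no test was given. Filled points are Mt3 in the genotype comparisons and for HCA in wild type, and Slc30a1 for the knockout with HCA.

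Mt1 and Mt3 ranked the 4 groups alike but did not follow each other from array to array within a group. Over the 16 arrays of chips 2 and 3, with each chip's mean removed, Pearson's r between them was 0.83, and with the mean of each group and chip removed it was −0.02. For Mt2 and Mt3 the values were 0.61 and 0.65, and for Mt1 and Mt2 0.64 and 0.49. The arrays of a chip share hybridisation and scanning, and r is given as a description. The genes whose pattern was most like that of Mt1 over those arrays were Dct (0.93), Eef1d, Ldha, Arsa and Ndufa1 (each 0.92), and Mt3 stood 139th. Dct is a melanin-pathway enzyme and Ldha a subunit of lactate dehydrogenase. For Mt3 they were Bloc1s1, Dbi, Dhrs1, P4hb and Romo1 (each 0.98), of which Dbi encodes the acyl-CoA binding protein and P4hb an ER disulfide isomerase. For Mt2 they were Taf7l (0.93), Ass1 (0.90), Arrb1 (0.89), Snrpb (0.87) and Scamp2 (0.85). With HCA, Dbi was −1.63 ± 0.12 in the knockout against wild type (log2, SE), beside −1.04 ± 0.12 for Mt3.

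**Figure D5:**
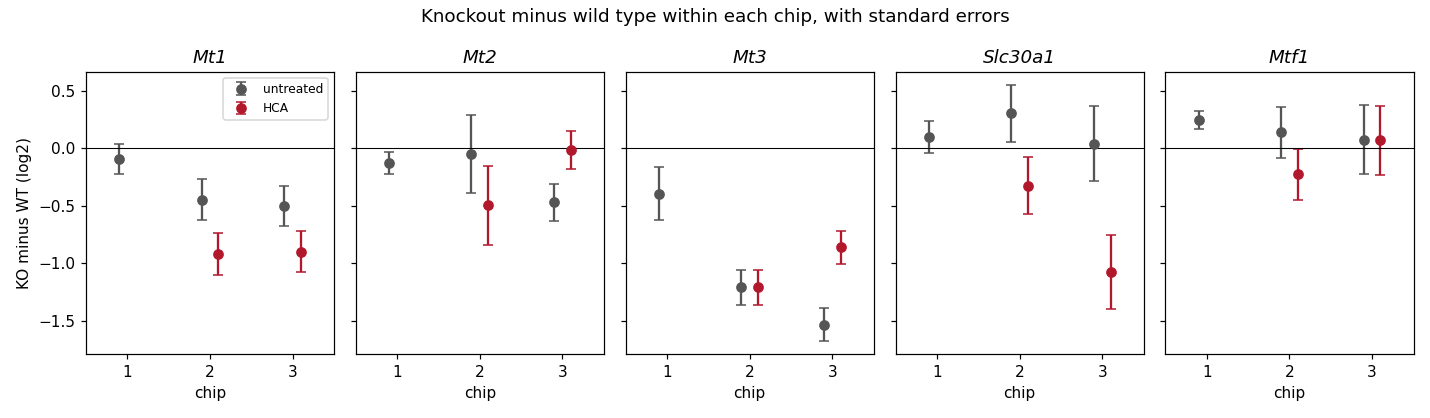
Genotype difference (knockout minus wild type, log2, y axis) of each member within each chip (x axis), without HCA on the 3 chips and with HCA on chips 2 and 3, with bars of 1 SE from each chip's own fit. Without HCA, Mt3 was −0.40 on chip 1, −1.21 on chip 2 and −1.54 on chip 3, and Mt1 was −0.09, −0.45 and −0.50.

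The other zinc transporters passed few tests. Of 23 genes of the SLC30 and SLC39 families, whose products move zinc out of and into the cytosol, 12 were tested. Without HCA 0 of the 12 were called in the knockout, against 12.4% of all genes, with a median difference of 0.05 (log2) beside 0.02 for all genes. The lowest p-values were those of Slc30a4 (0.23), Slc30a6 (0.18) and Slc39a3 (0.11), with limma adjusted p of 0.219 to 0.287. With HCA 1 of the 12, Slc39a11, was higher in the knockout (0.36 ± 0.11, log2, SE; limma adjusted p = 0.0347) and 0 were lower, against 21.9% of all genes called in either direction. HCA in wild type moved 0 of the 12 past the test, against 1.75% of all genes, with a median of 0.11 beside −0.01. At an unadjusted p under 0.05 the counts were 0 without HCA and 0 for HCA in wild type.

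Copper genes and further genes that depend on MTF1 were read beside them. Of 6 tested copper-handling genes 1, Ccs, the copper chaperone of superoxide dismutase, was lower in the knockout with HCA (−0.40 ± 0.09, log2, SE; limma adjusted p = 0.0053), against 11.1% of all genes called lower. Without HCA 0 of the 6 were called in limma, with Commd1 (−0.20, adjusted p = 0.0743) and Atox1 (−0.18, adjusted p = 0.124) at an unadjusted p under 0.05. For HCA in wild type 0 of the 6 were called, and 0 had an unadjusted p under 0.05. Of 5 tested MTF1-dependent genes other than the members, Csrp1, a LIM-domain protein, was the 1 called. It was 2.54-fold lower in the knockout with HCA (−1.34 ± 0.13, log2, SE; limma adjusted p = 6.57e-06) and was lowered by HCA in wild type (−0.63 ± 0.13, log2, SE; limma adjusted p = 0.0269). In the knockout its HCA difference was −0.91 ± 0.13 (log2, SE), without a test, beside −0.64 for Mt1. Without HCA, over the 3 chips, Csrp1 differed by 0.17 ± 0.54 between the genotypes (log2, SE; limma adjusted p = 0.883). On chips 2 and 3 its HCA responses differed by −0.28 ± 0.18 (log2, SE, knockout minus wild type). This is smaller than the −1.34 seen with HCA, so on those chips Csrp1 was also lower in untreated knockout neurons.

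Mt1 and Mt2 are also induced by glucocorticoids, and 10 of 14 listed glucocorticoid-responsive genes were tested. Without HCA 2 of the 10 were higher in the knockout, Errfi1 (0.23 ± 0.06, log2, SE) and Cdkn1a (0.21 ± 0.07), and 1 lower, Sgk1 (−0.27 ± 0.06). Of all genes 5.88% were called higher and 6.53% lower. With HCA 5 of the 10 were lower in the knockout and 0 higher, against 11.1% of all genes called lower and 10.8% higher. The 5 were Ddit4 (−1.70 ± 0.15, log2, SE), Sgk1 (−0.52 ± 0.08), Klf9 (−0.45 ± 0.07), Cdkn1a (−0.44 ± 0.10) and Dusp1 (−0.41 ± 0.10), with limma adjusted p of 2.73e-06 to 0.00682. Ddit4 is an inhibitor of mTORC1 and Cdkn1a a cell cycle inhibitor, and both are also raised by other stress pathways. In wild type HCA raised Ddit4 (1.53 ± 0.15, log2, SE) and Cdkn1a (0.46 ± 0.10), 2 of the 10, and lowered 0. Of all genes 0.857% were called higher and 0.891% lower. The other 5 of the 10 passed no test between the genotypes with HCA (limma adjusted p 0.154 to 0.98). They were Pdk4 (−0.37 ± 0.17, log2, SE), Per1 (−0.24 ± 0.17), Fkbp5 (0.11 ± 0.09), Nfkbia (−0.09 ± 0.34) and Errfi1 (0.0036 ± 0.07).

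Astrocytes and their precursors make metallothioneins in the brain, so markers of the other cell types of embryonic cortex were read in the same arrays. Of all genes, 6.53% were called lower and 5.88% higher in the knockout without HCA, and 11.1% lower and 10.8% higher with it. For HCA in wild type 0.891% were called lower and 0.857% higher. The counts of called markers stand against these shares. Of 10 astrocyte markers 6 were tested, and the probes of Gfap, Slc1a2, S100b and Aldoc were detected on 0 arrays. Without HCA 4 of the 6 were lower in the knockout, namely Aqp4 (−1.22, log2), Aldh1l1 (−0.67), Gja1 (−0.45) and Slc1a3 (−0.43), and with HCA 4 were lower and 1, Fgfr3, higher. For HCA in wild type 1 of the 6 was lower. The summed linear intensity of the 6 on chips 2 and 3 was 6830 to 7560 in untreated wild type, 4600 to 5850 in untreated knockout, 5920 to 6920 in HCA-treated wild type and 3970 to 4900 in HCA-treated knockout. The sums, which weigh the brightest probes most, ranked the groups as Mt1 and Mt3 did, but single markers did not all do so. For HCA in wild type Aqp4 (0.05, log2) and Gja1 (0.13) lay above 0, and Aldh1l1, Slc1a3, Sox9 and Fgfr3 below it. For HCA in the knockout Aqp4 (0.06, log2), Aldh1l1 (0.01) and Fgfr3 (0.13) lay above 0, and Slc1a3, Gja1 and Sox9 below it. On chip 1 the sums were 6310 to 8000 in wild type and 4910 to 7490 in the knockout and overlapped, as the levels of Mt1 and Mt3 did. The part of these cells in the values of Mt1 and Mt3 was not tested, and in RNA from whole cultures fewer cells of a type and less RNA per cell cannot be told apart.

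Radial glia and progenitor markers had 6 tested members, with 3 lower in the knockout without HCA, 3 with it and 1 lowered by HCA in wild type, and Pax6 and Fabp7 at 0 arrays. Their sum on chips 2 and 3 was 2320 to 3150 in untreated wild type, 1390 to 1610 in untreated knockout, 1870 to 2510 in HCA-treated wild type and 1360 to 1670 in HCA-treated knockout. Markers of meninges and fibroblasts, of which 4 were tested, had 2 lower in the knockout without HCA and 3 with it, with Col1a2, Col3a1 and Lum at 0 arrays. Their sum on chips 2 and 3 was 704 to 777, 339 to 426, 728 to 766 and 259 to 313 in the same order. On chip 1 it was 790 to 925 in wild type and 783 to 1300 in the knockout. The sum of the radial glia and progenitor markers there was 1500 to 2370 in wild type and 1320 to 1930 in the knockout. Microglial markers had 3 and 4 of 6 lower in the knockout without and with HCA, with Itgam and Ctss at 0 arrays. Of the 2 tested endothelial and pericyte markers, 0 were called lower without HCA over the 3 chips, 0 of them at an unadjusted p under 0.05 in limma. With HCA, on chips 2 and 3, 2 were lower, Flt1 (−1.21, log2) and Pdgfrb (−1.11), with Pecam1, Cdh5 and Kdr at 0 arrays. On chips 2 and 3 their sum was 366 to 406 in untreated wild type and 188 to 210 in untreated knockout. With HCA it was 338 to 609 in wild type and 168 to 216 in the knockout. On chip 1 it was 168 to 184 in wild type and 176 to 389 in the knockout. Of the 2 tested erythroid markers 0 passed a test in limma, and 0 had an unadjusted p under 0.05, and no choroid plexus marker reached the filter. Of 8 tested pan-neuronal markers, Nefm was higher in the knockout without HCA (0.55, log2; limma adjusted p = 0.00136) and with it (0.73, limma adjusted p = 0.000106), and Tubb3 was lower with HCA (−0.41, limma adjusted p = 0.0429). Their sum was 15300 to 18900 across the 4 groups of chips 2 and 3, with ranges that overlapped. The part of any of these cell types in the members' values was not tested.

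The metallothioneins lie side by side on chromosome 8 in the order Mt4, Mt3, Mt2 and Mt1, with 0 genes between neighbours in RefSeq, and Mt4 did not reach the filter. The nearest tested genes on each side were read as well. Nup93, a nuclear pore protein next to Mt1, was lower in the knockout without HCA (−0.26 ± 0.08, log2, SE; limma adjusted p = 0.0379) and with it (−0.39 ± 0.09, limma adjusted p = 0.00475). Herpud1, an ER stress protein further along that side, was −0.71 and −1.47 (log2) and was raised by HCA in wild type (0.65 ± 0.11, log2, SE; limma adjusted p = 0.00997). Bbs2, on the Mt3 side, was −0.0035 ± 0.11 without HCA (log2, SE; limma adjusted p = 0.99) and −0.41 ± 0.11 with it (limma adjusted p = 0.0154). Of the 6 neighbours, Nup93, Herpud1 and Cpne2 were lower in the knockout with and without HCA, Bbs2 with HCA alone, and Nudt21 and Ogfod1 in neither. Of all genes, 6.53% were called lower in the knockout without HCA and 11.1% with it. The neighbours were named after their values were seen.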

How the data were processed

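Embryonic cortical neurons of wild-type and Atf4 knockout mice, without or with HCA, were profiled on 24 one-colour Illumina Mouse Ref-8 arrays. Per the file headers, BeadStudio 1.5.1.3 averaged the beads of each of 24048 probes to a linear, unnormalized intensity, which the authors deposited, and gave each a detection score, read here as 1 minus a detection p. The authors also deposited log2 values, made with limma per the submitters' processing notes (version not given). Quantile-normalized log2 signals recomputed here equalled them to within 5.0e-14 for 23973 probes matched uniquely, and through that match 20915 probes were given the 1 gene symbol of the platform annotation.

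Here the background mean and SD of each array (SD 14.1 to 22.8) were read from the detection quantiles, and normexp correction, an offset of 16, log2 and quantile normalization followed. The values that limma's neqc infers were an alternative, with an SD of 214 to 302 on chip 1, 240 on wild-type HCA replicate 3 of chip 3 and 15.4 to 26.6 on the other arrays. A probe was kept if detected (p under 0.05) on 4 or more arrays, and a gene was represented by its brightest probe. limma 3.58.1 in R 4.3.3 was fitted to 8755 genes with group and chip, over 24 arrays for the untreated genotypes and over the 16 arrays of chips 2 and 3 otherwise, with Benjamini-Hochberg adjustment over all genes. The procedure was tested on simulated data, in which few genes were changed and noise was normal and independent between genes and arrays. The shares recovered hold for that setting, which differs from the data. A log2 change of 0.5 was recovered for 84% of the changed genes between untreated genotypes and for 43% with HCA in wild type. For a change of 1 the shares were 98% and 88%. A change of 0.5 with HCA in wild type was thus often missed in the simulation.

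The members, gene lists and tests were chosen with earlier results of these data known. Named genes are the members, Atf4, the 5 genes most correlated with each metallothionein, called list members and the lowest p-values of a list. For the genotypes with HCA, all tested glucocorticoid-responsive genes are named. Marker genes and the 6 neighbours of the cluster were named after their values were seen, and the test of chip by genotype was added likewise. Alternatives covered background, normalization, offset, filter, probe choice, chip, replicate number and each array left out. Promoters are those of the RefSeq table of GRCm38.p6, which held all 5 members.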

Additional observations from a re-analysis of the deposited data

Results flagged for a closer look

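The HCA response of Slc30a1 took opposite signs in the genotypes. All 4 wild-type HCA arrays lay above the untreated wild-type mean of their chip and all 4 knockout HCA arrays below that of the knockout, and the responses differed by −0.87 on the log2 scale (knockout minus wild type). The difference was not tested, and the share of all genes with such a split of signs was not computed. HCA and untreated levels overlapped in each genotype. The probe was detected on 4 of 4 wild-type and 1 of 4 knockout HCA arrays, and on 1 of 4 and 2 of 4 untreated arrays of these chips. The authors' deposited values gave −0.39 for the same difference.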

How the results depend on the processing

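Of 330 values of the members recomputed under alternatives other than leaving out an array, 289 kept their direction and their side of the threshold (or, without a test, moved by less than 1 SD), as did 409 of 440 values with an array left out. Adjusted p-values are from limma. Mt3 under HCA stayed lower in the knockout, with adjusted p of 1.27e-06 to 0.0287, in all 13 alternatives. Without HCA it lost the call on chip 1 alone (−0.40, adjusted p = 0.711) and kept it in the other 13. Mt1 without HCA passed the test with neqc (−0.29), the deposited values (−0.27), an offset of 50 (−0.28), probes detected on at least 12 arrays (−0.28), chips 2 and 3 alone (−0.47) and array set as a block (−0.47), and also without wild-type replicate 4 (adjusted p = 0.0159) or knockout replicate 2, 3 or 4 (0.045, 0.0347 and 0.0354). Its range with an array left out was −0.34 to −0.25. These tests of Mt1 share the untreated knockout arrays with the comparison that chose the set, so they are not independent of that choice.

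For Slc30a1 with HCA, the call was lost with median centring (−0.56), no detection filter (−0.70), array set as a block (−0.70), the replicate block (−0.70, adjusted p = 0.0506) and on chip 2 (−0.32) or chip 3 (−1.08) alone. With an array left out the value was −0.85 to −0.53, and the call was lost without wild-type HCA replicate 2, 3 or 4 (adjusted p 0.0848, 0.0629 and 0.131), knockout HCA replicate 2, 3 or 4 (0.0674, 0.0927 and 0.132) or untreated wild-type replicate 6 or 7 (0.0522 and 0.0544). For Mt3 with HCA in wild type, it was lost with median centring (−0.45), no filter (−0.52), no chip term (−0.52), all 24 arrays (−0.27) and on chip 2 (−0.46) or chip 3 (−0.58) alone. With an array left out it was −0.59 to −0.46, and the call was lost without any HCA-treated wild-type array (adjusted p 0.0786, 0.0778, 0.118 and 0.0965), untreated wild-type replicate 6, 7 or 8 (0.127, 0.105 and 0.107), untreated knockout replicate 6 or 8 (0.0533 and 0.0551) or knockout HCA replicate 2 or 3 (0.0539 and 0.0568). The cause was not tested.

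For HCA in the knockout, Mt3 was −0.42 with all 24 arrays, −0.75 with the replicate block, −0.45 on chip 2 and 0.10 on chip 3, Mtf1 −0.044 on chip 2, and Mt2 0.27 with the replicate block, which gave Mt2 0.33 in wild type. For the difference between the responses, Slc30a1 was −0.49 with neqc and −0.39 with the deposited values, and Mt1 was −0.63 with median centring, all 24 arrays or the replicate block. Mt2 was −0.19 with median centring, −0.062 with all 24 arrays or the replicate block, −0.45 on chip 2 and 0.46 on chip 3, and −0.17 to 0.26 with an array left out. Mt3 was 0.15 with median centring, −0.15 with all 24 arrays or the replicate block, 0.0021 on chip 2 and 0.67 on chip 3.

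Same-numbered arrays of the untreated genotypes correlated at −0.23 to 0.16 once group and chip means were removed, and 1 of 8 arrays of each genotype correlated best with its own number, so the numbers share only a chip. The replicate block gave 243 higher and 383 lower genes for the untreated genotypes and 615 and 707 with HCA. For HCA in wild type it gave 1960 and 2424, and in the knockout 2116 and 2484, as it sets HCA arrays of chips 2 and 3 against untreated arrays of chip 1. Without HCA, 57 higher and 135 lower genes were called with no chip term, 859 and 932 on chips 2 and 3 alone, 971 and 972 with array set as a block, and 3 and 28 on chip 1, 31 and 179 on chip 2 and 82 and 248 on chip 3 alone. With HCA, chip 2 gave 68 and 247 and chip 3 gave 57 and 274. For HCA in wild type no filter gave 59 and 42, chip 2 gave 1 and 0 and chip 3 gave 2 and 0. For HCA in the knockout 5 lower genes were called with neqc, the deposited values or all 24 arrays, 2 with median centring or probes detected on 12 arrays and 0 on a chip alone. Median centring moved the median of all genes to −0.11 for HCA in the knockout and to −0.15 for the difference between the responses.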
